A study of Mus musculus with 8 samples.

Results

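Transcripts of 10 genes of MHC class II antigen presentation were examined in RNA of the mouse buffy coat, the layer of white cells and platelets in centrifuged blood. The genes were taken by name: the class II chains H2-Aa, H2-Ab1 and H2-Eb1, the invariant chain Cd74, the coactivator Ciita, the peptide loading chains H2-DMa, H2-DMb1 and H2-DMb2, and the modulator chains H2-Oa and H2-Ob. They are 10 of 35944 annotated genes, and all 10 were among the 10361 genes with enough counts to test. In the study, 4 samples came from mice exposed to PM2.5, fine airborne particulate matter, and 4 from mice given PBS, the saline control. The study's design text gives 24 weeks. The labels name no strain, sex, age, dose or batch. They also do not state that each library came from its own mouse, and the p-values below therefore reflect only the variation among these libraries, part of which may be technical. Samples carry the numbers of their labels: 9, 17, 18 and 21 for PM2.5, and 4, 10, 12 and 16 for PBS.

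Class II molecules are heterodimers of an α and a β chain that present peptides from endosomes to CD4+ T cells. The invariant chain, made from Cd74, fills the groove of new dimers and is then degraded, after which H2-M (the product of the DM genes) exchanges its last fragment for peptide. H2-O (the product of the DO genes) restrains H2-M and is best known from B cells, while CIITA drives transcription of nearly all these genes through factors bound at shared promoter boxes. In blood the class II genes are expressed mainly by B cells, with monocytes and the rare dendritic cells as further sources.

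The class II, DM and DO genes lie together on chromosome 17 of GRCm38, between the start of H2-Oa at 34092340 and the end of H2-Eb1 at 34316674. Promoter sequences of 7 members were matched by symbol in RefSeq (GRCm38.p6), as windows from 250 bases before to 50 after the start. Short cores of the boxes known from class II promoters were searched on both strands: GCAAC for the X1 box, TGACG for the X2 box and ATTGG for the Y box, an inverted CCAAT. The 7 members had 8 windows, because H2-DMa had an additional window. A member was counted if any of its windows held the core, while the shares of all promoters are per window. The Y core was found for 7 of the 7, against 37.4% of all 32851 promoter windows. The X1 core was found for 5 (35.2% of all windows) and the X2 core for 1, H2-Aa (20.8%). An X1 core followed on the same strand by a Y core, 15 to 40 bases on, was found for 4 of the 7 and in 1.24% of all windows. A match of letters is a description and not a bound site. The stretches below show the 4 members with this arrangement, and the DM β chain genes, which have the Y core without GCAAC, for contrast; capitals mark GCAAC and ATTGG, and each reads 5′ to 3′ on the strand of its gene.
H2-Oa: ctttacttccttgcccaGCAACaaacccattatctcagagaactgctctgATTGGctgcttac
H2-Ob: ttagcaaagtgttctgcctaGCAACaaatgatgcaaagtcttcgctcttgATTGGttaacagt
H2-Aa: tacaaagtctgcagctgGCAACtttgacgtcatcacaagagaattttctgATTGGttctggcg
H2-Eb1: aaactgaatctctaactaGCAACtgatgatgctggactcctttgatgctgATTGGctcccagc
H2-DMb1: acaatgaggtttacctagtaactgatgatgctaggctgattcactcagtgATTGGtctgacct
H2-DMb2: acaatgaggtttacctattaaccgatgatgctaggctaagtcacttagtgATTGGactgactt

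Their positions are chr17:34092286-34092348 (H2-Oa), chr17:34238798-34238860 (H2-Ob), chr17:34287859-34287921 (H2-Aa, minus strand), chr17:34305758-34305820 (H2-Eb1), chr17:34153080-34153142 (H2-DMb1) and chr17:34145109-34145171 (H2-DMb2). The spacing of the cores was narrow: 28 bases in H2-Oa and H2-Aa, 27 in H2-Eb1 and 25 in H2-Ob. The DM β chain promoters held the Y core but not GCAAC, and were identical to each other at 56 of these 63 bases. H2-DMa had the X1 core in one of its windows and the Y core in another, and no pair; its most abundant transcript, H2-DMa-205, starts at 34135628, outside both windows.

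The libraries held 72081019 to 89032794 expected counts, of which haemoglobin genes took 86.7% to 88.6% in PM2.5 libraries and 82.3% to 87.9% in PBS libraries. The 10 members together held 5148 to 10548 counts per PM2.5 library and 9505 to 20810 per PBS library. PM2.5 replicates 17 and 18 stood apart: Snap25, Syt1, Slc1a2 and Camk2a, genes typical of brain and singled out after their values were seen, had 20 to 97 counts each there and 0 to 10 elsewhere.

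All 10 genes had lower mean levels in PM2.5 than in PBS buffy coats, and 1 of them, H2-Oa, passed the test over all genes. With edgeR's quasi-likelihood test and Benjamini-Hochberg adjustment, 1.6% of the 10361 genes were called at adjusted p 0.05, 1.14% lower and 0.463% higher (118 and 48 genes; 475 and 8 when libraries were scaled by their totals, which moved the median of all genes to -0.52 and that of the members to -1.16). At an unadjusted p under 0.05, 9 of the 10 were lower, against 9.28% of all genes, and 0 were higher, against 8.79%. The log2 fold changes of PM2.5 over PBS ran from -0.96 to -0.16 with a median of -0.57, against 0.04 over all genes tested, and 10 of 10 were below 0, against 45.7% of all genes (54.3% were above 0). In 5 members every PM2.5 library lay below every PBS library, against 6.64% of all genes, and in none the reverse, against 3.01%. These shares describe genes that belong together and were chosen with earlier results known. In bulk RNA, fewer cells of a type and less RNA per cell cannot be told apart.

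**Figure D1:**
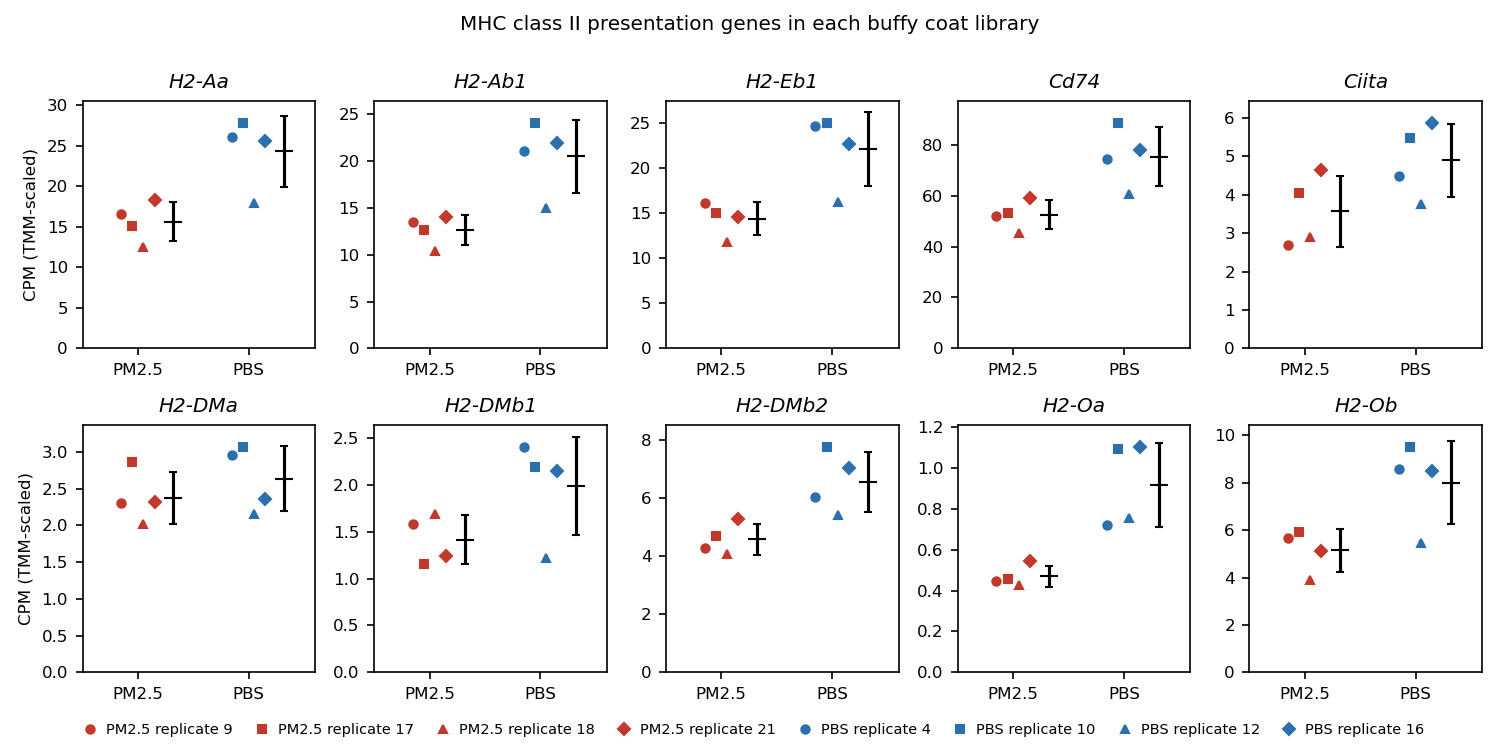
TMM-scaled CPM of each gene (y axis, from 0) in the 4 PM2.5 libraries and the 4 PBS libraries; symbols mark the replicates and bars the mean ± SD. PBS replicate 12 is the lowest PBS library in 9 of the 10 genes, and PM2.5 replicate 18 is the lowest of all 8 libraries in 8.

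H2-Oa, which encodes the α chain of the modulator H2-O, fell to 0.514 times its PBS level. It was at 0.448, 0.458, 0.426 and 0.546 CPM (counts scaled per library with TMM) in PM2.5 replicates 9, 17, 18 and 21, against 0.723, 1.09, 0.756 and 1.10 CPM in PBS replicates 4, 10, 12 and 16. The groups did not overlap. Between the highest PM2.5 and the lowest PBS library the gap was wider than the PM2.5 spread and narrower than the PBS spread. The means were 0.470 ± 0.0530 and 0.917 ± 0.206 CPM (SD, n = 4 each), which gave -0.96 as log2 fold change (SE 0.234, edgeR adjusted p = 0.0478). These values rest on 23 to 46 counts per PM2.5 library and 56 to 121 per PBS library. The call held in 2 of the 8 fits that left out 1 library, those without PBS replicate 4 or 12 (adjusted p = 0.0480 to 0.168 over the 8), and was lost when any 1 of the 4 PM2.5 libraries, PBS replicate 10 or PBS replicate 16 was left out. Without PM2.5 replicates 17 and 18, the libraries with brain-typical transcripts, H2-Oa was at -0.88 (adjusted p = 0.282), the members' median was -0.49 and no member passed. That fit called 8 of 11137 genes. Without PM2.5 replicates 9 and 21, 189 of 11018 genes were called and again no member, with H2-Oa at -1.08 (edgeR adjusted p = 0.0902). The H2-Oa call did not hold with protein-coding transcripts alone (adjusted p = 0.141).

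H2-Ob, the β chain that pairs with H2-Oa, had 5.66, 5.94, 3.90 and 5.11 CPM with PM2.5, against 8.57, 9.49, 5.47 and 8.49 CPM with PBS. Only PBS replicate 12 lay within the PM2.5 range. Its log2 fold change was -0.64 (SE 0.189, adjusted p = 0.102 by edgeR). Without PBS replicate 12 the value was -0.78 and passed (adjusted p = 0.0429), and it also passed when protein-coding transcripts alone were summed (-0.93, adjusted p = 0.0490).

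The 3 class II chains H2-Aa, H2-Ab1 and H2-Eb1 had similar log2 fold changes, of which none passed. H2-Aa, the α chain of the I-A molecule, had 16.6, 15.1, 12.6 and 18.3 CPM in PM2.5 libraries, against 26.1, 27.8, 17.9 and 25.6 CPM in PBS libraries. H2-Ab1, its β chain, had 13.5, 12.7, 10.4 and 14.1 CPM with PM2.5, against 21.1, 24.0, 14.97 and 22.0 CPM with PBS. In H2-Ab1 the groups did not overlap, and in H2-Aa they did so through PBS replicate 12 alone, which lay below PM2.5 replicate 21. The log2 fold changes were -0.64 for H2-Aa (SE 0.191, adjusted p = 0.104) and -0.70 for H2-Ab1 (SE 0.187, adjusted p = 0.0705), neither past the edgeR test. Without PBS replicate 12, H2-Ab1 passed at -0.82 (adjusted p = 0.0374).

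H2-Eb1, the β chain of the I-E molecule, had 16.1, 14.99, 11.8 and 14.6 CPM with PM2.5, against 24.7, 24.9, 16.2 and 22.6 CPM with PBS. PBS replicate 12 lay just above PM2.5 replicate 9, so the groups did not overlap but nearly met (log2 fold change -0.62, SE 0.187, edgeR adjusted p = 0.105). Its α chain partner, annotated as the polymorphic pseudogene H2-Ea-ps because some mouse strains lack it, had 0 counts in all 8 libraries, which allows up to 3 counts per library. The neighbouring gene H2-Eb2 was at 0.436, 0.879, 0.259 and 0.808 CPM with PM2.5 and at 1.125, 1.32, 0.797 and 1.17 CPM with PBS, and its log2 fold change was -0.89 (SE 0.297, edgeR adjusted p = 0.141).

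Cd74, on chromosome 18 (60803848 to 60812652), was the most abundant member and had 52.2, 53.3, 45.5 and 59.2 CPM with PM2.5, against 74.2, 88.3, 60.5 and 78.1 CPM with PBS. The groups did not overlap, with PM2.5 replicate 21 and PBS replicate 12 closest to each other. Its log2 fold change was -0.52 (SE 0.194) and did not pass (edgeR adjusted p = 0.186). Ciita, on chromosome 16 (10480059 to 10528418), had 2.69, 4.05, 2.91 and 4.63 CPM with PM2.5 and 4.48, 5.47, 3.77 and 5.85 CPM with PBS. Its groups overlapped, as PM2.5 replicates 17 and 21 lay above PBS replicate 12, and its log2 fold change of -0.46 did not pass (SE 0.193, adjusted p = 0.233).

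Among the genes of the H2-M exchanger, the β chain gene H2-DMb2 had 4.28, 4.71, 4.09 and 5.30 CPM with PM2.5, against 6.05, 7.75, 5.41 and 7.04 CPM with PBS, with no overlap (log2 fold change -0.51, SE 0.161, edgeR adjusted p = 0.118). Its paralog H2-DMb1 had 1.15 to 1.68 CPM with PM2.5 and 1.22 to 2.40 CPM with PBS, and the groups overlapped (-0.50, SE 0.209, adjusted p = 0.230). The main transcripts of both genes were identical at 93.9% of aligned bases, and 37.6% of the 31-base words of the H2-DMb1 transcript also occur in that of H2-DMb2, so reads between them may be split uncertainly. H2-DMa, the α chain, differed least of all members: 2.30, 2.86, 2.02 and 2.32 CPM with PM2.5, against 2.96, 3.06, 2.16 and 2.36 CPM with PBS. The groups overlapped widely (-0.16, SE 0.168, edgeR adjusted p = 0.644). The value was -0.31 with protein-coding transcripts alone, -0.25 when PM2.5 replicate 17 was left out, -0.088 when replicate 18 was, and -0.24 when PBS replicate 12 was, and it passed in none of these fits. The annotated span of H2-DMa, from 34119541, overlaps the gene Brd2 on the opposite strand, which had 240.0 to 677.0 counts per library. Most H2-DMa counts (mean share 79.1%) came from H2-DMa-205, which starts at 34135628. Whether counting used strand is not given in the sources used here, and whether Brd2 reads entered the H2-DMa counts was not tested.

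The deposited FPKM, which divides by transcript length, allows levels to be set between genes. Cd74 led with 48.0 ± 16.5 FPKM in PM2.5 and 102 ± 33.5 FPKM in PBS libraries (SD, n = 4 each). H2-Aa, H2-Eb1 and H2-Ab1 followed at 14.9 ± 5.90, 14.0 ± 5.47 and 13.3 ± 4.999 FPKM with PM2.5 and at 34.4 ± 12.5, 33.4 ± 12.9 and 32.2 ± 11.7 FPKM with PBS. In each group these 3 means lay within each other's SD between libraries, which does not compare genes within a library. In single libraries H2-Aa was 1.04 to 1.24 times H2-Ab1. H2-Ob (4.07 ± 1.26 with PM2.5, 8.53 ± 3.61 with PBS) and H2-DMb2 (3.47 ± 1.14 and 7.36 ± 2.33 FPKM) came next, their means also within each other's SD between libraries. H2-DMa was at 2.64 ± 0.997 and 4.07 ± 1.41 FPKM and H2-DMb1 at 1.73 ± 0.762 and 4.03 ± 1.83 FPKM, PM2.5 before PBS. Ciita (0.645 ± 0.201 and 1.46 ± 0.455 FPKM) and H2-Oa (0.478 ± 0.168 and 1.37 ± 0.464 FPKM) were lowest. FPKM counts haemoglobin in its total, so the distance between groups on this scale includes the haemoglobin share.

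**Figure D2:**
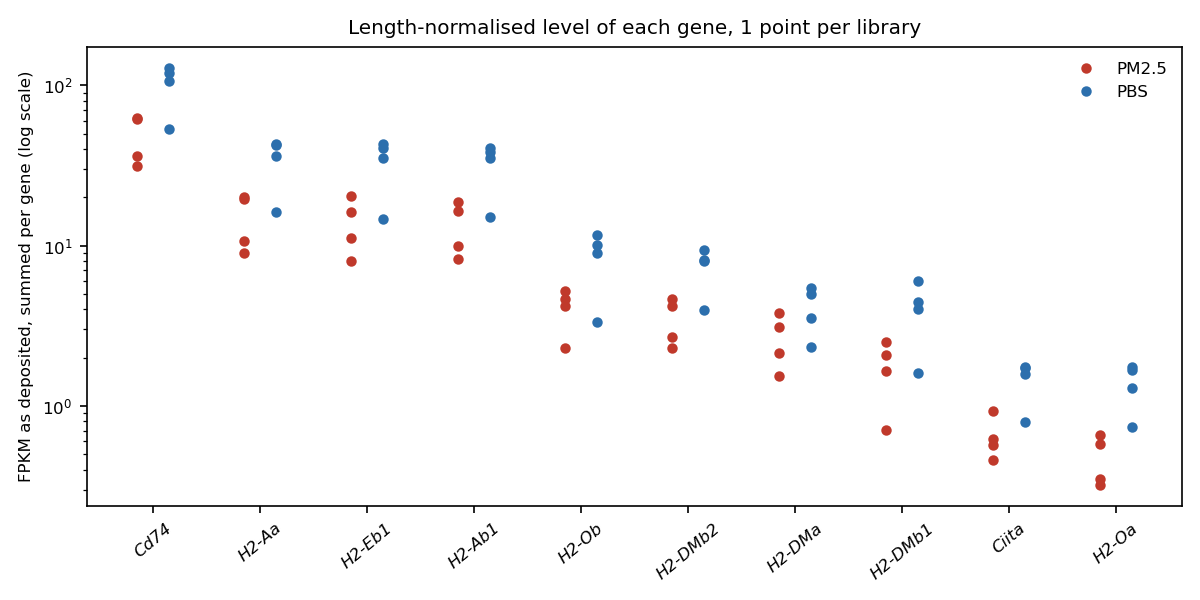
Deposited FPKM summed per gene, on a log axis, with 1 point per library and the genes in order of level. PM2.5 libraries run from 31.5 to 62.7 FPKM for Cd74 and from 0.32 to 0.66 FPKM for H2-Oa, and PBS libraries from 53.3 to 128.5 and from 0.74 to 1.76 FPKM.

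Ratios between partner chains do not depend on how libraries are scaled, and 8 were compared as log2 of the FPKM ratio by exact permutation tests (two-sided, 70 arrangements, smallest p 0.0286), adjusted over the 8. None passed after adjustment. The largest difference was in H2-Oa over H2-DMa, the modulator against the exchanger it restrains. This ratio was 0.153, 0.164, 0.209 and 0.214 with PM2.5, against 0.238, 0.352, 0.316 and 0.476 with PBS. Every PM2.5 library lay below every PBS library, and the log2 difference of -0.87 gave an exact p of 0.0286, the smallest possible, and an adjusted p of 0.229. The denominator is H2-DMa, whose annotated span overlaps that of Brd2, though most of its counts came from H2-DMa-205, which starts at 34135628.

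Cd74 over H2-Ab1 was 3.36, 3.64, 3.83 and 3.77 with PM2.5 and 3.08, 3.18, 3.55 and 3.04 with PBS, a log2 difference of 0.19 (exact p = 0.0571, adjusted p = 0.229). The α to β chain ratio of I-A, H2-Aa over H2-Ab1, stayed near 1 in every library, at 1.05 to 1.24 with PM2.5 and 1.04 to 1.12 with PBS (log2 difference 0.05, exact p = 0.486). Without PM2.5 replicate 21 that difference was 0.0012. Ciita over Cd74 had a log2 difference of -0.09 (exact p = 0.771), whose sign turned on expected counts (0.04) and without PM2.5 replicate 9 (0.07). H2-Ob over H2-Oa had one of 0.52 (exact p = 0.143), and of 0.32 on expected counts.

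Isoform use was compared for 18 transcripts of 9 members with at least 50 mean counts and 5% to 95% of their gene's counts, by exact permutation tests adjusted over the 18. None passed, and no unadjusted p was under 0.0571. Cd74-202 has 9 exons, 1 more than the 8 of Cd74-201. The added exon of 192 bases (chromosome 18, 60811294 to 60811485) is the one that gives the longer p41 form of the invariant chain its thyroglobulin-like domain, known as an inhibitor of cathepsin L. Cd74-202 took 15.5%, 19.3%, 14.96% and 16.7% of Cd74 counts with PM2.5, against 17.9%, 15.5%, 16.3% and 19.5% with PBS. The groups overlapped fully (difference -0.74 percentage points, exact p = 0.571), and the difference lay between -1.63 without PM2.5 replicate 17 and -0.011 without PBS replicate 16.

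Ciita is transcribed from several alternative first exons, known as pI in dendritic cells, pIII in B cells and the interferon-γ-inducible pIV, in this order along the gene. Its 8 transcripts were grouped, after the table was seen, into 3 start regions: 3 transcripts starting at 10480059 to 10480164, 2 at 10488178 to 10488279 and 3 at 10489746 to 10489783, which lie in the order of these promoters. The middle region took 82.5%, 76.5%, 84.0% and 83.4% of Ciita counts with PM2.5, against 85.0%, 76.2%, 53.5% and 73.2% with PBS. It was the main source in all 8 libraries, and PBS replicate 12 had the lowest share. The last region took 14.4% ± 4.93 with PM2.5 and 21.4% ± 10.1 with PBS, and the first 3.998% ± 3.52 and 6.67% ± 4.63 (SD, n = 4 each). Of the 2 Ciita transcripts tested, Ciita-201 from the middle region differed by 9.68 percentage points (exact p = 0.143, adjusted p = 0.571), and by 4.02 without PBS replicate 12.

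Of the H2-Ob transcripts, the coding H2-Ob-201 took 56.8%, 44.4%, 53.8% and 54.2% of the gene's counts with PM2.5, against 60.5%, 64.6%, 64.8% and 55.1% with PBS. The groups overlapped by 1 library (difference -8.95 percentage points, exact p = 0.0571, adjusted p = 0.571). Transcripts annotated with a retained intron took 33.6% ± 6.44 of H2-Ob counts with PM2.5 and 25.5% ± 3.48 with PBS. In H2-Oa they took 27.7% ± 4.32 and 29.2% ± 4.94, and in Cd74 1.59% ± 1.12 and 1.15% ± 0.220 (SD, n = 4 each).

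**Figure D3:**
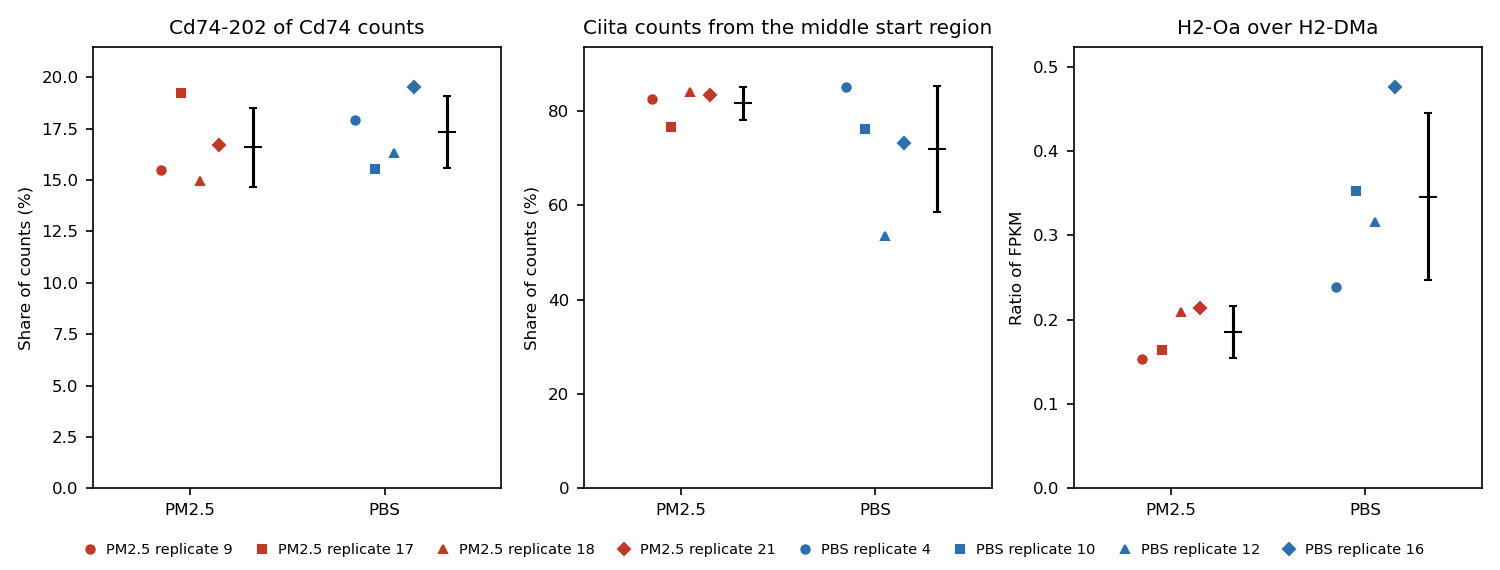
Share of Cd74 counts in Cd74-202 and share of Ciita counts from the middle start region (both in percent), and the FPKM ratio of H2-Oa over H2-DMa, in each library, with bars for the mean ± SD. The groups overlap in both shares, while the PM2.5 ratios (0.153 to 0.214) all lie below the PBS ratios (0.238 to 0.476).

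Markers of B cells were also lower in PM2.5 than in PBS libraries. All 16 listed B cell markers were tested, 16 had log2 fold changes below 0 (median -0.42) and 3 were lower past the test, with none higher. These were Ebf1, the B lineage transcription factor (-1.12, SE 0.177, adjusted p = 0.0068), Blk, a kinase of the B cell receptor (-0.81, SE 0.193, adjusted p = 0.0445), and Bank1, an adaptor of that receptor (-0.79, SE 0.194, adjusted p = 0.0487). Ms4a1, which encodes CD20, was at -0.13 (edgeR adjusted p = 0.699).

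The summed B cell markers were 81.6, 81.8, 72.8 and 93.6 CPM in PM2.5 replicates 9, 17, 18 and 21, against 111, 133, 82.5 and 126 CPM in PBS replicates 4, 10, 12 and 16. PBS replicate 12 was thus the lowest PBS library in the markers as in the members, and PM2.5 replicate 18 the lowest of all 8 in both. The summed members were 115, 115, 95.3 and 125 CPM with PM2.5, against 171, 194, 128 and 175 CPM with PBS. Divided by the summed B cell markers they gave 1.41, 1.41, 1.31 and 1.34 with PM2.5 and 1.55, 1.46, 1.56 and 1.39 with PBS, where the groups overlap by PBS replicate 16. With the mean of the B cell markers as a covariate, edgeR called no member and 1 of the 10361 genes, against 166 without it. At an unadjusted p under 0.05 there were 0 of the 10 members and 787 of all genes, against 1872 without it. The median member was at -0.18 and H2-Oa at -0.59 (adjusted p = 0.704). The covariate itself went with the group. It was -0.36 to -0.038 in PM2.5 libraries and 0.25, 0.47, -0.24 and 0.40 in PBS replicates 4, 10, 12 and 16. The fit therefore separates the marker level poorly from the group. The part of B cell number in the members' levels cannot be told apart from expression per cell in these data.

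**Figure D4:**
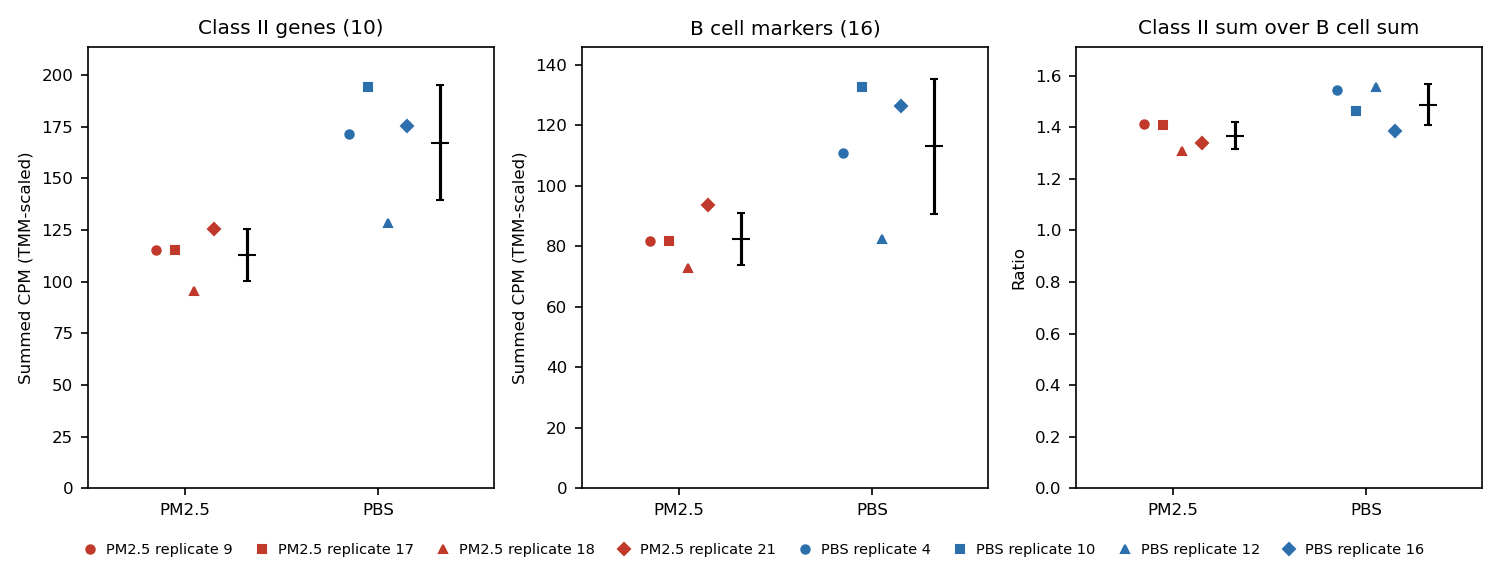
Summed TMM-scaled CPM of the 10 class II genes and of 16 B cell markers, and the ratio of the sums, in each library (y axes from 0; bars, mean ± SD). The sums are lower with PM2.5 and in PBS replicate 12, and the ratio spans 1.31 to 1.41 with PM2.5 and 1.39 to 1.56 with PBS.

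Of 12 dendritic cell markers 8 were tested and none passed, with 5 below 0. Their sum was 6.53 to 8.14 CPM with PM2.5 and 7.14 to 10.1 CPM with PBS. Xcr1, which defines the conventional type that cross-presents antigen, had 1 count in PM2.5 replicate 21 and 0 in the other libraries, and Tcf4, a factor of plasmacytoid dendritic cells that B cells also express, was at -0.72 (SE 0.184, adjusted p = 0.0581). Of the monocyte and macrophage markers 10 of 11 tested were above 0 and 3 were higher: Ccr2 (1.99), Vcan (2.23) and Ms4a6c (1.04). Their sum was 62.7 to 92.9 CPM with PM2.5 and 39.2 to 66.4 CPM with PBS. Neutrophil markers were higher in 5 of 7 tested (Mmp8, S100a8, Lcn2, Mmp9 and Cxcr2), with sums of 26.9 to 51.9 CPM with PM2.5 and 13.02 to 25.5 CPM with PBS. Of 7 NK cell markers Ncr1 was higher, and of 10 T cell markers none passed. All 8 platelet markers tested (median 0.33) and all 9 red cell markers tested (median 0.56) were above 0, and none of either list passed. The platelet sums were 684.6 to 1109 CPM with PM2.5 and 572.8 to 1054 CPM with PBS, and overlapped. The part of these cells in the members' levels was not tested.

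Among genes that act upstream and downstream of class II, no list held a gene past the test. Of 7 factors of the class II promoter boxes, none passed and 6 were above 0 (median 0.19). Rfx5, a subunit of the X box complex, was at 0.537 to 0.660 CPM with PM2.5, against 0.716 to 1.36 CPM with PBS, without overlap (-0.64, SE 0.239, adjusted p = 0.189). Its partner Rfxank was at 0.80 (SE 0.233, adjusted p = 0.0954), on the other side of 0. Of 12 regulators of Ciita, among them the interferon-γ receptor and its signalling genes, none passed (median 0.11). The B cell factor Pax5, also among the B cell markers, was at -0.46 (adjusted p = 0.204).

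Endosomal proteases and their inhibitors, which degrade the invariant chain and antigen, also gave 0 calls in 8 tested, with 7 above 0 (median 0.20). Ctss, cathepsin S, the main invariant chain protease of B cells, was at 0.12 (SE 0.176, adjusted p = 0.734). The 2 with the smallest p were Ctsl, cathepsin L, at 1.12 (SE 0.406, adjusted p = 0.171) and the inhibitor Cst3, cystatin C, at 0.41 (SE 0.153, adjusted p = 0.181). Genes of class II trafficking and turnover had a median of 0.19 over 6 tested and no call, with March1, the ligase that removes class II from the surface, at -0.13 (adjusted p = 0.712). The 2 with the smallest p there were Ap2m1, of the adaptor that internalises invariant chain, at 0.41 (adjusted p = 0.276) and Arl14ep at 0.65 (adjusted p = 0.298).

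Of the costimulatory genes 4 of 4 tested were below 0 (median -0.48) and none passed; Cd70 and Tnfsf4 had 0 counts in every library. Cd86, a ligand of CD28, was at 0.510, 0.495, 0.426 and 0.653 CPM with PM2.5 and 1.06, 1.31, 0.959 and 0.618 CPM with PBS (-0.91, SE 0.253, adjusted p = 0.0837), and only PBS replicate 16 lay within the PM2.5 range. Icosl was at -0.48 (adjusted p = 0.248). Class I presentation genes, measured beside them, had 6 of 11 above 0 and none past the test (median 0.08). B2m, the class I light chain, was at 0.46 (SE 0.201, adjusted p = 0.243) and the peptide transporter gene Tap1 at -0.40 (SE 0.180, adjusted p = 0.254). The difference between the class I and class II lists was not tested.

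**Figure D5:**
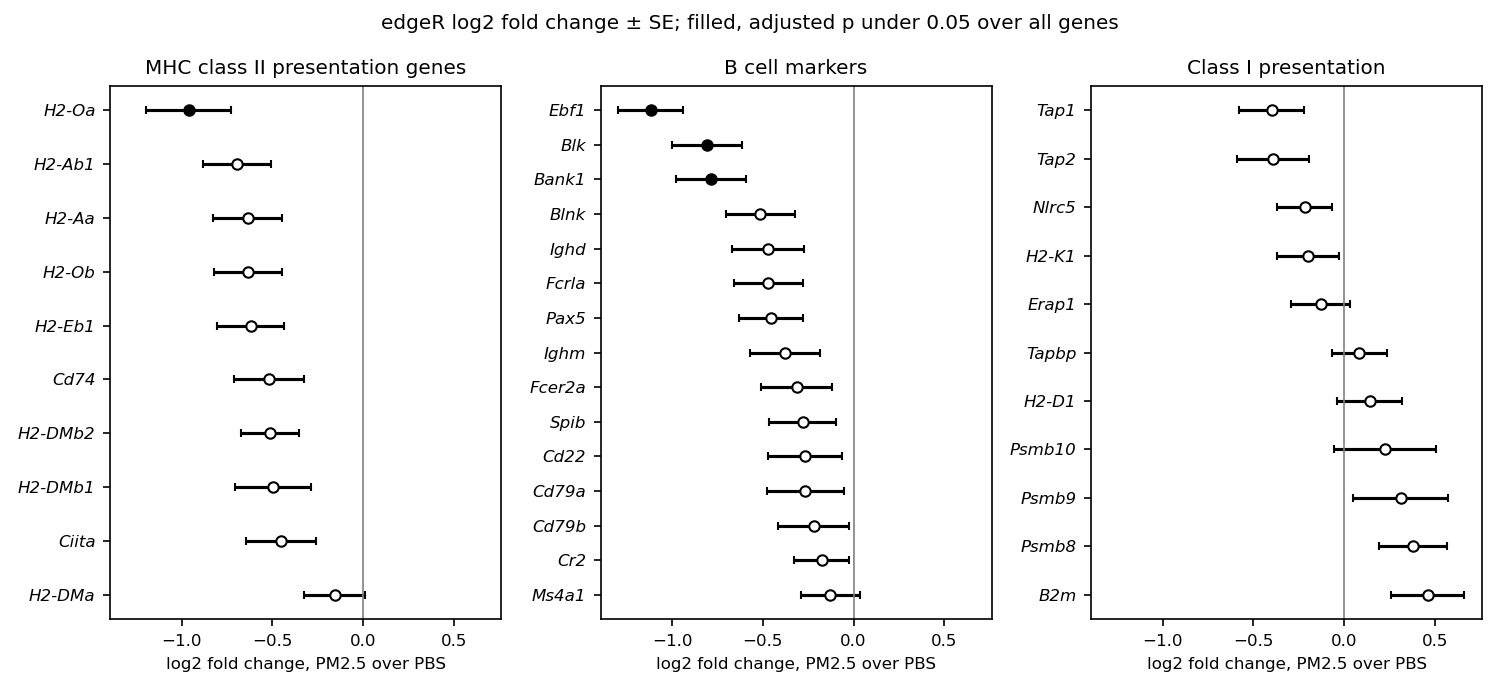
edgeR log2 fold change of PM2.5 over PBS (x axis) with its SE for the 10 class II genes, 15 of the B cell markers and 11 class I presentation genes; filled points have adjusted p under 0.05 over all genes. H2-Oa, Ebf1, Blk and Bank1 are filled, and class I genes lie on both sides of 0.

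Over the 8 libraries most members, though not H2-DMa and H2-DMb1, tracked Cd74 closely, as a description of 8 points that share their libraries and a group difference. Pearson's r of log2 CPM with Cd74 was 0.99 for H2-Ab1, 0.98 for H2-Aa and H2-DMb2, 0.95 for H2-Eb1, 0.94 for H2-Ob and H2-Oa, and 0.86 for Ciita. H2-DMb1 (0.66) and H2-DMa (0.63) were lowest. After each group's mean was taken off, r was 0.96 for H2-Ab1, 0.95 for H2-DMb2 and 0.37 for H2-DMb1. Genes outside the list were also ranked by r, with predicted and clone-named genes, pseudogenes and antigen receptor segments skipped. The 5 with the highest r were Macf1 (0.99), Sh3pxd2a (0.99), B3gnt5 (0.99), Cacna1i (0.98) and Myo1c (0.98). Their log2 fold changes ran from -0.67 (Cacna1i, adjusted p = 0.0558) to -0.48 (Myo1c, adjusted p = 0.124), and none passed.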

How the data were processed

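Random primers and dUTP marking of the second strand were used for the libraries, per the labels' protocols. Reads were handled with HISAT2 2.0.1, cutadapt 1.9.1 and bcl2fastq 2.17.1.14 on build GRCm38, per the submitters' processing notes; the counting tool is not given in the sources used here. The authors deposited expected counts (estimated counts, not normalized) and FPKM (per transcript length and library fragments, per the file headers) for 118783 transcripts. GENCODE M21 named 116710 of them, which gave 35944 gene sums; the rest held 0.0266% to 0.0532% of each library.

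Rounded gene sums entered the quasi-likelihood test of edgeR 4.0.16 (R 4.3.3; two-sided, group only, filterByExpr with minimum count 10 and minimum total 15, TMM scaling, Benjamini-Hochberg adjustment over 10361 genes, threshold 0.05). The SE is the log2 fold change over the square root of F. The procedure was run on simulated data, but the outcome is not reported here and gives the calls no support. No pair of libraries within a group agreed within sampling noise. Because haemoglobin took most counts, 9637639 to 12752766 counts per library measured other genes, which limits precision for low genes such as H2-Oa.

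Members and lists were chosen with earlier results of these data known. Named were all members, each list's calls (up to 6, by smallest p), otherwise 2 per list by smallest p, and the 5 genes most correlated with Cd74. For these 5, predicted and clone-named genes, pseudogenes and antigen receptor segments were skipped. Xcr1, Ms4a1, Ctss, March1, Brd2 and 4 genes typical of brain fall outside this rule and were picked with their values in view. Some genes of the lists are counted but not reported here by name. Alternatives covered scaling, filters, DESeq2 1.42.0, limma 3.58.1, a B cell covariate, coding transcripts and left-out libraries.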

Additional observations from a re-analysis of the deposited data

Results flagged for a closer look

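Of 72 groups of 4 values checked (levels, isoform shares and log2 ratios), 4 held a library far from the other 3, and chance gives about 1 in 20. The share of H2-Eb1-205, a transcript subject to nonsense-mediated decay, was 19.8% in PM2.5 replicate 17 against 9.49% to 11.0% in the other PM2.5 libraries. The share of H2-DMa-205, its main coding transcript, was 72.9% in PBS replicate 12 against 88.2% to 88.7% in the other PBS libraries. The share of H2-DMb1-201 was 79.1% in PBS replicate 10 against 65.7% to 67.5% in the others. The log2 ratio of Ciita over Cd74 was -6.66 in PM2.5 replicate 9 against -6.10 to -5.99 in the others. What set these libraries apart was not tested.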

How the results depend on the processing

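Each member kept a log2 fold change below 0 under the alternatives it was tested in (17 for H2-Oa, 18 for Ciita and 20 for the others; H2-Oa and Ciita were not in the limma fits), except Ciita (0.0096) and H2-DMa (0.086) with the B cell markers as a covariate; the cause was not tested. With 166 genes and 1 member called in the reported fit, the counts of genes and members called were 483 and 8 with library totals (median of all genes -0.52), 226 and 6 with haemoglobin removed and totals (-0.30), 624 and 5 without a filter, 220 and 2 at a CPM of 1 or more in 4 libraries, where H2-Oa was not tested, 373 and 5 with DESeq2, 49 and 1 with coding transcripts, and 1 and 0 with the B cell covariate. limma on log2(FPKM + 1) and on log2(FPKM + 0.1) called 0 genes (716 and 695 at an unadjusted p under 0.05) and 0 members (7 of 8 unadjusted). Without PM2.5 replicates 17 and 18 the counts were 8 and 0, and without replicates 9 and 21 they were 189 and 0. Leaving out 1 library gave 31 to 192 genes and 0 to 3 members, and 0 isoform shares and 0 ratios throughout; the gene count was 55, 69 and 85 when PM2.5 replicate 17, 18 or 21 was dropped and 87 and 31 when PBS replicate 4 or 10 was, and the 3 members came without PBS replicate 12. Isoform shares on FPKM and ratios on counts also gave 0 calls. No paired analysis was possible because the groups share no replicate numbers. The limit of 3 counts per library given for H2-Ea-ps covers counting error only. The SE values come from the edgeR fit and include variation between libraries. H2-Oa, with 23 to 46 counts per PM2.5 library, is the member with the least depth.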
